A study of Homo sapiens with 6 samples.

Results

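Genes of the tight junctions, adherens junctions and desmosomes, with a few of their polarity proteins, gap junction proteins and regulators, were examined in RL95-2, a long-established cell line from a human endometrial carcinoma. The set was made by name, from 48 gene symbols chosen with earlier results of these data known. All 48 were found among the 23228 genes of the count files. RNA was sequenced from 3 libraries labelled control and 3 labelled ADP-CM. Both groups were kept without serum for 24 h after growth in medium with 10% serum. The control cells received RPMI mixed with fresh DMEM in equal parts, and the ADP-CM cells received RPMI mixed in equal parts with adipocyte-conditioned medium, which is DMEM in which mature adipocytes isolated from human adipose tissue had been cultured. The comparison addresses how medium from adipocytes changes gene expression in this line. It rests on 1 cell line and 1 time point. The labels number the replicates but do not say that they were separate cultures, so the p-values measure only the spread between these libraries, which may be technical.

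Tight junctions seal the space between neighbouring epithelial cells. Claudins form their strands and set which ions pass, and the scaffold proteins tie the strands to actin. Adherens junctions and desmosomes hold cells together through cadherins, which are linked inside the cell by catenins to actin and by plakoglobin, plakophilins and desmoplakin to keratin filaments. The lining of the endometrium is a simple epithelium that carries all of these junctions.

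The ADP-CM libraries differed from control at many of these genes, in both directions and by small amounts. The 41 genes with enough reads to test moved by a median of 0.14 on the log2 scale, regardless of sign. Of these, 2 passed both a fold change of 1.5 and the adjusted p-value limit given below. Cingulin-like 1 (CGNL1) rose and connexin 26 (GJB2) fell past both limits. The scaffold gene TJP3 was lower by more than that fold change but did not pass the adjusted p-value limit. It had few reads and its groups overlapped. Plakoglobin (JUP), desmocollin 3 (DSC3), the coxsackievirus and adenovirus receptor (CXADR), the apical polarity protein CRB3 and periplakin (PPL) fell. Claudin 1 (CLDN1), the scaffold protein TJP1, beta-catenin (CTNNB1), desmoglein 2 (DSG2) and desmoplakin (DSP) rose. The quasi-likelihood test of edgeR was run on all 12663 genes with enough reads, its p-values were adjusted by the Benjamini-Hochberg method, and a gene was called when the adjusted value was below 0.01. Levels are TMM-normalized CPM, which are read counts scaled to library size, unless stated otherwise.

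Since the genes were chosen with earlier results of these data known, the following counts are a description and not a test of the set. Of the 41 tested genes, 8 were called higher in ADP-CM, where 13.5% of all tested genes were. A further 14 were called lower, against 13.0% of all tested genes. The remaining 19 did not pass. With a fold change over 1.5 added, 1 gene was higher and 1 was lower, and the shares among all tested genes were 1.14% higher and 1.14% lower. The 3 control and 3 ADP-CM values did not overlap for 25 of the 41 genes, which compares with 45.5% of all tested genes. The median log2 fold change was -0.05, against -0.0023 over all tested genes. The junction genes were well expressed, with a median control level of 73.3 CPM against 36.5 for all tested genes. Of the 7363 tested genes between 17.3 and 194 CPM, the range that holds the middle of the junction genes, 30.0% were called in either direction. The 41 genes include genes outside this range, such as CTNNB1 and JUP above it, so that share is not matched to all 41. In bulk RNA, fewer cells that express a gene and less of its RNA in each cell cannot be told apart.

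**Figure D1:**
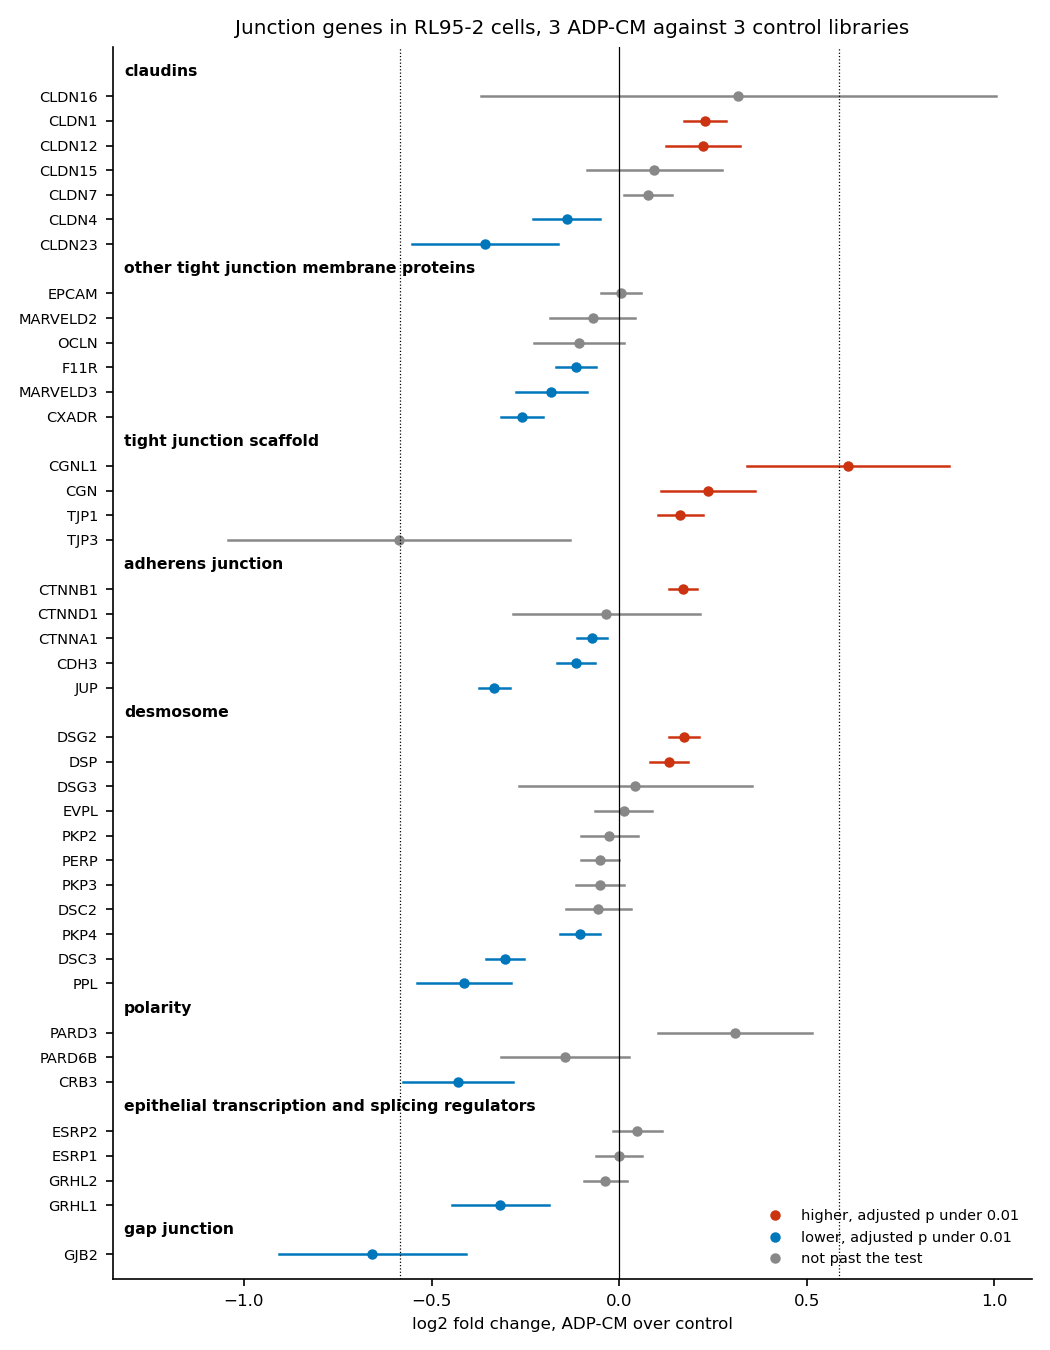
Log2 fold change of ADP-CM over control on the horizontal axis for the 41 tested genes, grouped by role, with 95% confidence intervals as bars. Colour marks genes called higher, called lower or not past the adjusted p-value limit of 0.01, and the dotted lines mark a fold change of 1.5 in either direction. CGNL1 at 0.61 and GJB2 at -0.66 are the called genes beyond the dotted lines, while most intervals lie between them.

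The control libraries held 16262614 to 17096135 reads on genes and the ADP-CM libraries 18103609 to 18363033. Reads that lay on no gene made up 10.2% to 10.3% of counted reads in control and 11.5% to 11.6% in ADP-CM. The groups did not overlap in this share, and its part in the results was not tested. All 8 epithelial markers checked were tested, and their summed level was 5608 to 5762 CPM in control and 4916 to 5015 CPM in ADP-CM. Of these 8 markers, 2 rose, PAX8 and MUC1, and 4 fell, KRT8, KRT19 and CDH1 among them. KRT8 had 30149, 30910 and 31483 reads in control and 26244, 25910 and 26708 in ADP-CM. PAX8 had 2515, 2569 and 2450 reads in control and 3255, 3219 and 3494 in ADP-CM. Of 14 adipocyte markers, 6 had no read in any library, ADIPOQ and LEP among them, and 2 had enough reads to test. LIPE fell, from 84, 97 and 109 reads in control to 63, 69 and 74 in ADP-CM. CFD, at 154 to 202 reads per library, did not pass. The sum of all 14 was 15.3 to 16.6 CPM in control and 14.2 to 16.3 CPM in ADP-CM. Of 10 stromal fibroblast markers, 3 were tested and 2 of these rose, while THY1 and DPT had no read. FAP rose from 133, 114 and 123 reads in control to 267, 320 and 289 in ADP-CM. COL1A1 rose from 1007, 1118 and 1005 reads to 1376, 1424 and 1408, and COL3A1 did not pass. The sum of all 10 was 68.7 to 75.2 CPM in control and 93.7 to 96.6 CPM in ADP-CM. The summed leukocyte markers were 8.60 to 9.49 CPM in control and 10.85 to 13.2 CPM in ADP-CM, with TYROBP at 0. Of the 2 tested, CD68 rose, from 122, 136 and 115 reads in control to 197, 176 and 214 in ADP-CM. The other, ITGAM, did not pass. The summed endothelial markers were 60.9 to 67.1 CPM in control and 54.6 to 62.2 CPM in ADP-CM, with KDR and EMCN at 0. The 1 tested endothelial marker, CDH5, was not called. The part of these markers in the junction results was not tested.

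Of the 12 claudins, 2 rose, 2 fell, 3 were tested and did not pass, and 5 had too few reads to test. CLDN1, a sealing claudin (chr3:190023496-190040235, GRCh37), stood at 164, 162 and 161 CPM in the control libraries and at 190.4, 195 and 186 CPM in the ADP-CM libraries. Every ADP-CM library was above every control library. The log2 fold change was 0.23 (SE 0.0275, edgeR adjusted p = 3.47e-10), a rise of 17.2%. CLDN12, an unusual claudin that lacks the usual scaffold-binding tail (chr7:90013035-90142716, GRCh37), stood at 39.9, 38.2 and 38.1 CPM in control and 47.45, 42.5 and 45.7 CPM in ADP-CM. It rose without overlap between the groups, by 0.22 on the log2 scale (SE 0.0497, edgeR adjusted p = 0.000226). In the annotation 17.6% of its exon bases lie on the same strand as other genes, so reads on those bases are uncertain.

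CLDN4, a claudin that limits the passage of sodium, and CLDN23 were the falling claudins. CLDN4 stood at 56.3, 54.4 and 57.6 CPM in control and 52.1, 48.3 and 52.25 CPM in ADP-CM, a log2 fold change of -0.14 (SE 0.0440, edgeR adjusted p = 0.00872). Its groups did not overlap, but its call was near the limit. It was lost without control replicate 1 or 3 or without ADP-CM replicate 1 or 2, where edgeR's adjusted p was 0.0126 to 0.0735, with library sizes alone (adjusted p = 0.0104) and with DESeq2 (adjusted p = 0.0711). CLDN23 stood at 10.4, 10.8 and 10.99 CPM in control and at 8.23, 8.18 and 8.75 CPM in ADP-CM. It fell without overlap between the groups, by 0.36 on the log2 scale (SE 0.0972, edgeR adjusted p = 0.00240). The call was lost without control replicate 2 or 3 or ADP-CM replicate 1 (edgeR adjusted p = 0.0102 to 0.0128) and with DESeq2 (adjusted p = 0.0379). On the same strand, 72.5% of the exon bases of CLDN23 are shared with another annotated gene, so its level is uncertain.

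CLDN7, a claudin of the lateral membrane, lay at 106, 105 and 110.1 CPM in control and 114, 112 and 112 CPM in ADP-CM, so the groups did not overlap. Its log2 difference of 0.08 (95% confidence interval 0.01 to 0.14) did not pass (edgeR adjusted p = 0.0568). CLDN15, a claudin that forms sodium pores, differed by 0.09 (interval -0.09 to 0.27), and CLDN16, known from magnesium transport in the kidney, by 0.32 (interval -0.37 to 1.00) at 10 to 17 reads per library. Neither passed. CLDN3 had 6, 7 and 10 reads in control and 7, 4 and 17 in ADP-CM, and CLDN9 had 11, 6 and 12 reads in control and 7, 10 and 7 in ADP-CM. These were too few to test, and their groups overlapped. CLDN6, CLDN8 and CLDN10 had 0 reads in all 6 libraries, which at this depth allows up to 3 reads in each.

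Divided by transcript length, the claudin reads came mostly from 3 genes. Per kb of the MANE Select transcript, CLDN7 made up 39.5% ± 0.584 (SD, n = 3) of the control claudin level and 39.4% ± 0.400 (SD, n = 3) under ADP-CM, with overlapping groups. The share of CLDN1 was 26.9% ± 0.523 in control and 29.7% ± 0.966 in ADP-CM, and that of CLDN4 was 18.8% ± 0.309 and 16.2% ± 0.549. Both sets of shares were without overlap, in opposite directions. The share of CLDN23 was 2.83% in control and 2.09% in ADP-CM. The order of CLDN7 and CLDN1 depends on the length used. Per kb of all annotated exons, a scale chosen after seeing the data, CLDN1 held 38.9% in control and 42.2% in ADP-CM, ahead of CLDN7 at 37.3% and 36.5%. Of undivided claudin reads, CLDN1 held 41.9% and 45.2%, and CLDN7 27.6% and 26.8%. On these scales the share of CLDN7 was lower in ADP-CM without overlap. The share of CLDN1 was higher and those of CLDN4 and CLDN23 lower on all 3 scales.

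**Figure D2:**
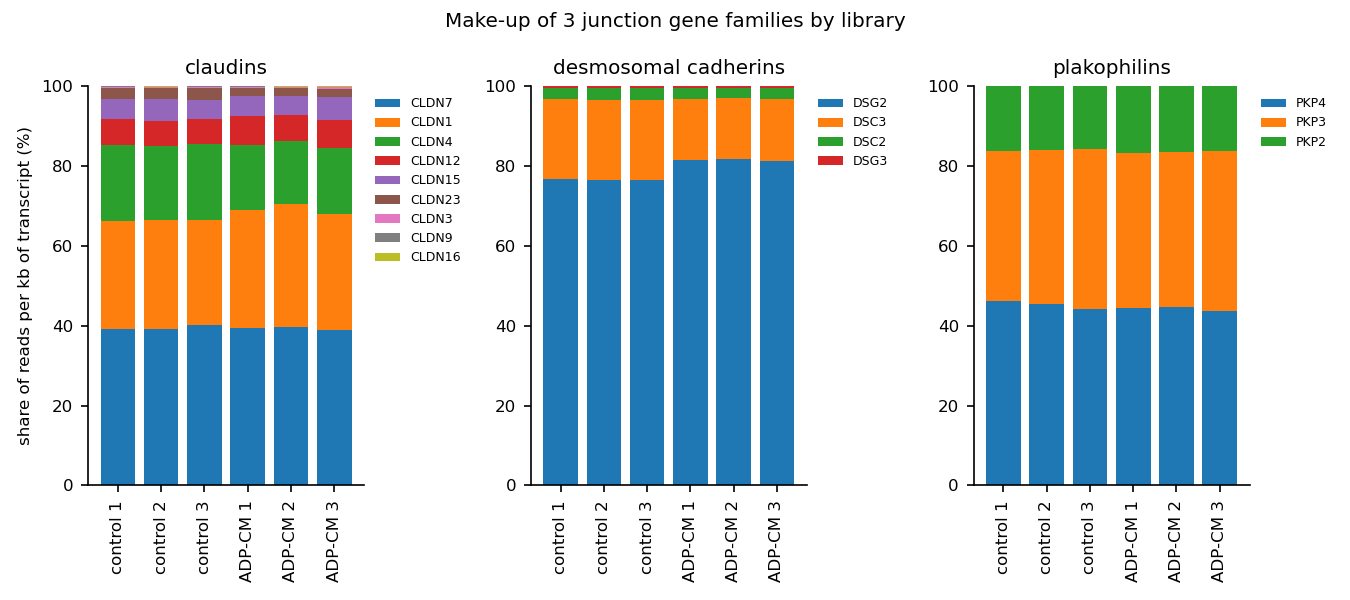
Share, in percent of the level per kb of MANE Select transcript, of each gene within the claudins and the desmosomal cadherins, as stacked bars for the 3 control and 3 ADP-CM libraries, beside the same for the plakophilins. The CLDN1 and DSG2 bands are wider and the CLDN4 and DSC3 bands narrower in all 3 ADP-CM libraries than in any control library, while the PKP3 and PKP4 bands overlap between the groups.

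Of the other 6 tight junction membrane proteins, 3 fell, none rose and 3 did not pass. CXADR, an adhesion molecule of the immunoglobulin family and a virus receptor (chr21:18885361-18965897, GRCh37), stood at 173, 175 and 176 CPM in control and 147, 147 and 144 CPM in ADP-CM. The groups were far apart relative to their spread. The log2 fold change was -0.26 (SE 0.0280, edgeR adjusted p = 1.30e-11), a fall of 16.4%, and no setting tried ended the call. F11R, also known as JAM-A, another immunoglobulin-like adhesion molecule (chr1:160965001-160991133, GRCh37), stood at 206, 202 and 197 CPM in control and 183, 189 and 188 CPM in ADP-CM. It fell without overlap by 0.11 on the log2 scale (SE 0.0267, edgeR adjusted p = 0.000416). Without ADP-CM replicate 1 the edgeR adjusted p was 0.0102, and 36.6% of its exon bases lie on the same strand as another annotated gene. MARVELD3, a relative of occludin (chr16:71660064-71676017, GRCh37), stood at 50.3, 51.4 and 52.05 CPM in control and 48.6, 44.9 and 42.2 CPM in ADP-CM. Its groups lay close but did not overlap, and the log2 fold change was -0.18 (SE 0.0475, edgeR adjusted p = 0.00168). The call was lost without control replicate 3 (edgeR adjusted p = 0.0139), without ADP-CM replicate 3 (0.0274) and with DESeq2 (adjusted p = 0.0265). On the opposite strand, 18.4% of the exon bases of MARVELD3 are shared with other annotated genes. The strand setting of the counting is not given, so reads on those bases are uncertain.

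Occludin (OCLN), the first membrane protein known from tight junctions, differed by -0.11 on the log2 scale (95% confidence interval -0.23 to 0.01). Tricellulin (MARVELD2), which sits where 3 cells meet, differed by -0.07 (interval -0.18 to 0.04). Neither passed. EPCAM, an epithelial adhesion molecule that binds claudin 7, was at 202, 203 and 195 CPM in control and 201, 206 and 195 CPM in ADP-CM. The groups overlapped, and the log2 difference of 0.01 had an interval of -0.05 to 0.06.

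Of the 4 tight junction scaffold genes, 3 rose. TJP1, which encodes the scaffold ZO-1 (chr15:29991571-30261118, GRCh37), stood at 162, 175 and 157.5 CPM in control and 184.5, 189 and 179.6 CPM in ADP-CM. The control libraries spread more than the ADP-CM libraries, and the groups did not overlap. The log2 fold change was 0.16 (SE 0.0299, edgeR adjusted p = 1.03e-05). Cingulin (CGN), which links ZO-1 to actin and myosin, stood at 21.3, 21.1 and 22.3 CPM in control and 26.1, 24.0 and 26.2 CPM in ADP-CM. It rose without overlap by 0.24 (SE 0.0626, edgeR adjusted p = 0.00183). The call of CGN was lost without control replicate 2 or ADP-CM replicate 1 or 3 (edgeR adjusted p = 0.0106 to 0.0139) and with DESeq2 (adjusted p = 0.0350).

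Its relative CGNL1, or paracingulin (chr15:57668165-57842915, GRCh37), was low, at 63 to 131 reads per library. It stood at 4.25, 3.73 and 5.44 CPM in control and 7.24, 7.09 and 6.20 CPM in ADP-CM, without overlap. The log2 fold change was 0.61 (SE 0.134, edgeR adjusted p = 0.000194), or 1.53-fold. Without control replicate 1 or 2 or ADP-CM replicate 1 or 2 the log2 fold change was 0.49 to 0.58, under the fold limit, and the adjusted p-value still passed. The scaffold ZO-3, encoded by TJP3, stood at 2.40, 2.72 and 1.87 CPM in control and 1.27, 1.2 and 2.17 CPM in ADP-CM. Its groups overlapped and its log2 difference of -0.59 (SE 0.228) did not pass (edgeR adjusted p = 0.0367). Without ADP-CM replicate 3 the difference was -0.91, and it passed (edgeR adjusted p = 0.00332).

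**Figure D3:**
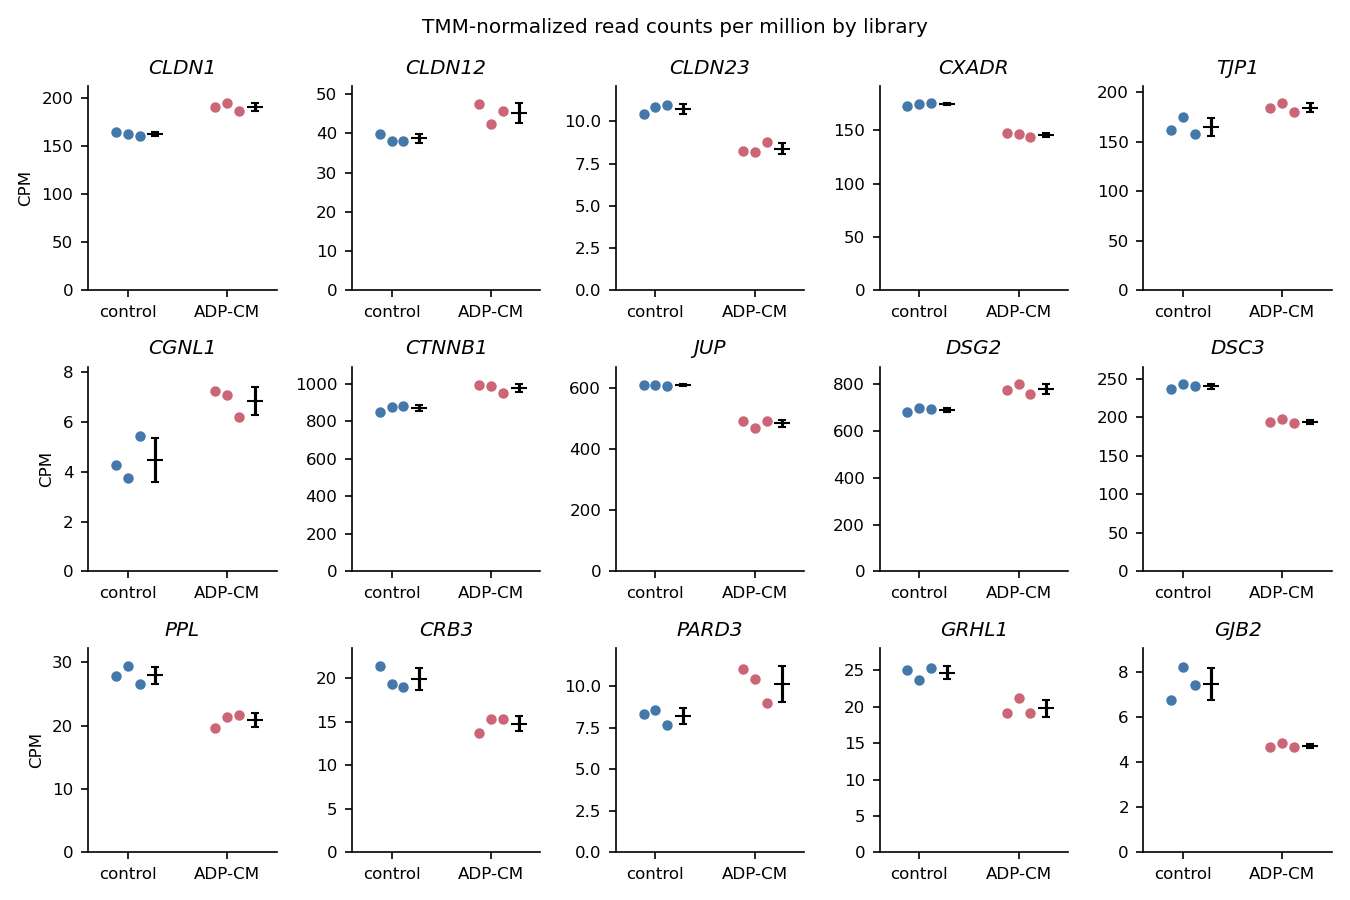
TMM-normalized CPM on the vertical axis, from 0, of 15 junction genes in each control and ADP-CM library, 1 point a library, with the mean and SD as bars beside the points. The 15 genes are a selection, all from the 25 of the 41 tested genes whose groups do not overlap. Among all tested genes, 45.5% had no overlap. The distance between the groups is small against the level for most genes shown, such as CTNNB1, which rose by 12.5%.

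Of the 5 adherens junction genes, 1 rose and 3 fell. CTNNB1, which encodes beta-catenin, a partner of cadherin tails and also the effector of Wnt signalling (chr3:41236232-41301587, GRCh37), stood at 849.9, 877 and 879 CPM in control and 995, 985.5 and 950.4 CPM in ADP-CM. It rose without overlap by 0.17 on the log2 scale (SE 0.0188, edgeR adjusted p = 2.71e-11). JUP, which encodes plakoglobin, the closest relative of beta-catenin and a part of both adherens junctions and desmosomes (chr17:39910856-39943183, GRCh37), stood at 612, 611 and 607 CPM in control and 491, 471 and 491 CPM in ADP-CM. The control libraries lay within a few CPM of each other and far above the ADP-CM libraries. JUP fell by 20.6%, a log2 fold change of -0.33 (SE 0.0202, edgeR adjusted p = 6.17e-22), the smallest adjusted p-value among the 41 genes. CDH3, which encodes P-cadherin (chr16:68670092-68761371, GRCh37), stood at 259.6, 265 and 257 CPM in control and 239.5, 234 and 247 CPM in ADP-CM. It fell without overlap by 0.12 (SE 0.0249, edgeR adjusted p = 0.000149).

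CTNNA1, or alpha-catenin, which connects beta-catenin with actin, fell by 0.07 on the log2 scale (edgeR adjusted p = 0.00266), from 516 to 521 CPM to 486 to 499 CPM. That call was lost without control replicate 2 or 3 or ADP-CM replicate 1 (edgeR adjusted p = 0.0107 to 0.0424). CTNND1, or p120 catenin, which steadies cadherins at the membrane, differed by -0.03 (95% confidence interval -0.28 to 0.22) at 98 to 132 reads per library. In the annotation 39.1% of its exon bases are shared on the same strand with readthrough genes, so its level is uncertain.

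Beta-catenin and plakoglobin moved in opposite directions, and their ratio within each library needs no scaling between libraries. The ratios reported here were chosen after the values of their genes were seen and carry no test. The ratio of CTNNB1 to JUP reads was 1.39, 1.44 and 1.45 in control and 2.03, 2.09 and 1.94 in ADP-CM, a rise of 41.7% between the means. Per kb of the MANE Select transcript, CTNNB1 held 57.7% of the sum of both genes in control and 65.9% in ADP-CM. Per kb of all annotated exons it held 37.4% and 45.9%, so which gene is more abundant depends on the length used, while the direction does not.

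Of the 12 desmosome genes, 2 rose, 3 fell, 6 were tested and did not pass, and PKP1, or plakophilin 1, had 1 read in control replicate 2 and 0 elsewhere. DSG2, the desmoglein of simple epithelia (chr18:29078140-29128971, GRCh37), stood at 680, 696 and 692 CPM in control and 773, 801 and 757 CPM in ADP-CM. It rose without overlap by 0.17 on the log2 scale (SE 0.0196, edgeR adjusted p = 6.12e-11). DSC3, a desmocollin best known from the basal layers of stratified epithelia (chr18:28569331-28622781, GRCh37), stood at 237, 243 and 240.1 CPM in control and 193.5, 197.5 and 192 CPM in ADP-CM. It fell without overlap by 0.31 (SE 0.0254, edgeR adjusted p = 7.50e-16). The other desmosomal cadherins, DSG3 at 0.04 (95% confidence interval -0.27 to 0.35) and DSC2 at -0.06 (interval -0.14 to 0.03), did not pass.

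The balance of the desmosomal cadherins differed between the groups, which follows from the rise of DSG2 and the fall of DSC3 and is no separate result. The ratio of DSG2 to DSC3 reads was 2.86, 2.86 and 2.88 in control and 3.99, 4.05 and 3.94 in ADP-CM, higher by 39.2% between the means. Of the summed level of the 4 desmosomal cadherins per kb of MANE Select transcript, DSG2 held 76.5% ± 0.134 (SD, n = 3) under control medium and 81.5% ± 0.234 (SD, n = 3) under ADP-CM. DSC3 held 20.0% ± 0.0869 and 15.3% ± 0.185. Neither share overlapped between the groups, also per kb of all annotated exons and in undivided reads.

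**Figure D4:**
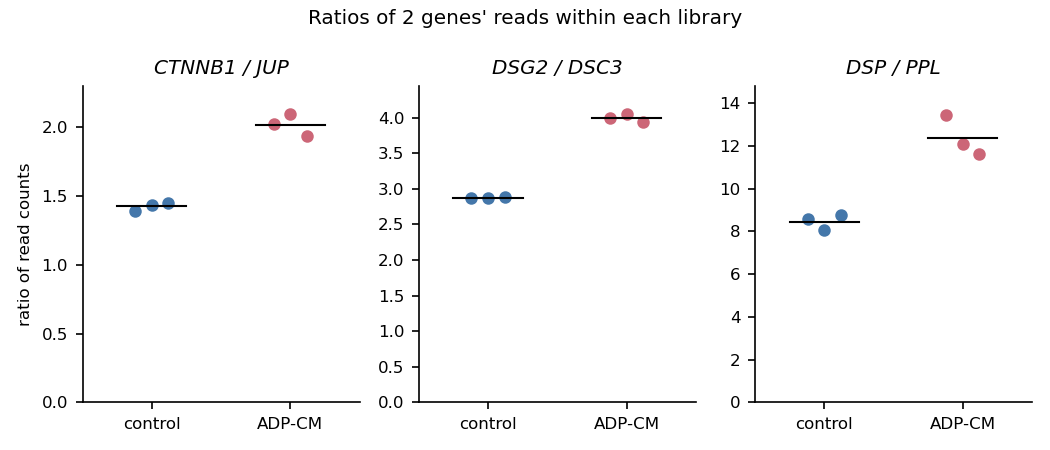
Ratio of the read counts of 2 genes within each library, on a vertical axis from 0, for CTNNB1 over JUP, DSG2 over DSC3 and DSP over PPL; points are libraries and lines are group means. All 3 ratios are higher in each ADP-CM library than in any control library, by 39.2% to 46.4% between the means. The pairs were chosen after the values of their genes were seen, each with a gene that rose over a gene that fell.

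Desmoplakin and periplakin, related plakins that bind keratin filaments, also moved in opposite directions. DSP stood at 238, 236.5 and 232 CPM in control and 264, 259 and 252 CPM in ADP-CM, a rise of 0.13 on the log2 scale (SE 0.0248, edgeR adjusted p = 1.35e-05). PPL (chr16:4932508-5010742, GRCh37) stood at 27.8, 29.4 and 26.55 CPM in control and 19.7, 21.4 and 21.7 CPM in ADP-CM. It fell by 24.97%, a log2 fold change of -0.41 (SE 0.0624, edgeR adjusted p = 1.56e-07). Neither gene's groups overlapped. The ratio of DSP to PPL reads was 8.58, 8.05 and 8.75 in control and 13.4, 12.1 and 11.6 in ADP-CM. Envoplakin (EVPL), the partner of periplakin in the cornified envelope, differed by 0.01 (95% confidence interval -0.06 to 0.09) and did not pass.

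Plakophilins bridge the cadherins and desmoplakin. PKP4, a relative found also at adherens junctions, fell from 232, 231 and 213 CPM to 210.2, 209 and 209.6 CPM, by 0.10 on the log2 scale (SE 0.0270, edgeR adjusted p = 0.00148). The call was lost without control replicate 1 or 2 (edgeR adjusted p = 0.0265 and 0.0301) and with DESeq2 (adjusted p = 0.0117). PKP2 at -0.03 (95% confidence interval -0.10 to 0.05), PKP3 at -0.05 (interval -0.12 to 0.01) and PERP, a desmosomal membrane protein, at -0.05 (interval -0.10 to -0.0019) did not pass (edgeR adjusted p = 0.630, 0.207 and 0.0969). Per kb of MANE Select transcript, PKP4 held 45.3% of the plakophilin level in control and 44.3% in ADP-CM, PKP3 38.7% and 39.2%, and PKP2 16.02% and 16.5%. Per kb of all annotated exons, PKP3 held 50.25% in control and 50.83% in ADP-CM, ahead of PKP4 at 38.2% and 37.3%. The order of PKP4 and PKP3 thus depends on the length used.

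Of the 3 polarity genes, CRB3 fell and the other 2 did not pass. CRB3, the crumbs protein of the apical membrane (chr19:6463788-6467232, GRCh37), stood at 21.3, 19.4 and 19.0 CPM in control and 13.75, 15.3 and 15.3 CPM in ADP-CM. The groups did not overlap. CRB3 fell by 25.7%, a log2 fold change of -0.43 (SE 0.0733, edgeR adjusted p = 2.53e-06). PARD3, the Par complex scaffold that helps place tight junctions (chr10:34398488-35104253, GRCh37), stood at 8.32, 8.59 and 7.66 CPM in control and 11.05, 10.4 and 8.97 CPM in ADP-CM. Its groups did not overlap, but the log2 difference of 0.31 (SE 0.103) missed the limit (edgeR adjusted p = 0.0135). Without ADP-CM replicate 3 it was 0.39 and passed (edgeR adjusted p = 0.00263). PARD6B, the partner of PARD3, differed by -0.14 (95% confidence interval -0.31 to 0.03).

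Of the 2 connexin genes, GJB2 fell and GJA1 could not be tested. GJB2 encodes connexin 26, a gap junction channel of epithelia (chr13:20761602-20767077, GRCh37). It stood at 6.78, 8.23 and 7.43 CPM in control and 4.695, 4.85 and 4.68 CPM in ADP-CM, without overlap. The log2 fold change was -0.66 (SE 0.125, edgeR adjusted p = 1.77e-05), a fall of 36.6% at 85 to 139 reads per library. Without control replicate 2 it was -0.58, just inside the fold limit of 1.5, while the adjusted p-value still passed. GJA1, which encodes connexin 43, had 1 read in control replicate 2 and 0 in the other 5 libraries.

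Among the 4 regulators, GRHL1 fell. GRHL1 and GRHL2 are grainyhead-like transcription factors that bind at many epithelial junction genes. GRHL1 (chr2:10091822-10142405, GRCh37) stood at 25.1, 23.6 and 25.4 CPM in control and 19.1, 21.2 and 19.2 CPM in ADP-CM, without overlap. The log2 fold change was -0.32 (SE 0.0645, edgeR adjusted p = 5.87e-05). GRHL2 differed by -0.04 (95% confidence interval -0.09 to 0.02) and did not pass. ESRP1 and ESRP2 are splicing factors of epithelial cells. ESRP2 (chr16:68262936-68272005, GRCh37) stood at 107, 109 and 107 CPM in control and 111, 109 and 115 CPM in ADP-CM. Its log2 difference of 0.05 (SE 0.0322) did not pass (edgeR adjusted p = 0.248), nor did that of ESRP1 at -0.00 (interval -0.06 to 0.06).

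Promoter sequence was available for 30 of the 48 genes, in 44 windows of 300 bases around RefSeq starts. SNAI2 and ZEB1 are known to bind the E-box CACCTG, whose reverse complement is CAGGTG, and grainyhead factors bind motifs such as AACCNGTT. Both motifs were searched on both strands, with TTCNNNGAA, a motif of STAT factors. An E-box was found in 14 of the 44 windows, or 31.8%, against 20.6% of all 35116 windows in the table. These windows belonged to 13 genes, 3 of the 8 called higher that have a window, 3 of the 8 called lower, 5 of the 9 that did not pass and 2 of the 5 that were not tested. The grainyhead motif was found in 1 window, that of CGN, against 1.73% of all windows, and the STAT motif in 4 windows, or 9.09%, against 7.66%. The STAT matches were at CLDN12, CTNNA1, CLDN16 and DSC2. A match is a string of letters and not a shown binding site.

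Stretches upstream of 4 starts are given 5′ to 3′ on the gene's own strand (RefSeq, GRCh38.p14), to show the matches at genes that moved in different directions. Capitals mark the E-boxes in the first 3 sequences and the grainyhead motif in the last. CLDN7, which did not pass and is not shown, has as many E-boxes in its window as CRB3. They lie at offsets of -174, -135, -20, -9 and 5 bases from its start. CRB3, which fell, has 5 E-boxes between 228 and 60 bases before its start (chr19:6464021-6464270, plus strand), in a stretch of 250 bases.
CRB3: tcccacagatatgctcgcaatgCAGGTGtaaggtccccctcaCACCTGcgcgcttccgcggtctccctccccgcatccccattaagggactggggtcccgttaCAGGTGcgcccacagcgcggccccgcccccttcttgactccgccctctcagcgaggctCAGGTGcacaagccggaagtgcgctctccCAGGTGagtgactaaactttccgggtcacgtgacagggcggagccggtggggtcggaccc
JUP, which fell, has 2 E-boxes at 54 and 43 bases before its start (chr17:41785977-41786096, minus strand).
JUP: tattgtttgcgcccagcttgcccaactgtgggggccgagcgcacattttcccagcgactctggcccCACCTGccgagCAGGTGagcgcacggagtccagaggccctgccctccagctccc
DSG2, which rose, has 1 E-box at 116 bases before its start in the stretch shown (chr18:31498057-31498176, plus strand) and another upstream of it.
DSG2: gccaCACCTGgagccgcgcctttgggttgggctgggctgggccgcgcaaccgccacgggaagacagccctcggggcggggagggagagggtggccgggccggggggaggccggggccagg
CGN, which rose, has its grainyhead match 27 bases before its start (chr1:151511267-151511386, plus strand), and no E-box was found in its window.
CGN: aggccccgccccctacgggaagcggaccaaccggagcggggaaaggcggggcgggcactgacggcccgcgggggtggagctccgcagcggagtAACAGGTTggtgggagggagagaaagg

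Other junction genes were read from a list of 92 genes. Of these, 63 were tested, and 6 were called higher and 15 lower, or 33.3% in either direction, where 26.5% of all tested genes and 30.0% of those in the abundance range above were called. Of the called genes, IVL alone also passed a fold change of 1.5. E-cadherin (CDH1), the main cadherin of epithelial adherens junctions, stood at 168, 159 and 161 CPM in control and 120.4, 119.7 and 125 CPM in ADP-CM. It fell by 0.42 on the log2 scale (SE 0.0302, edgeR adjusted p = 1.14e-18). Involucrin (IVL), the cornified envelope protein that periplakin and envoplakin join, stood at 27.1, 26.35 and 25.55 CPM in control and 15.0, 14.6 and 14.6 CPM in ADP-CM. It fell by 0.84 (SE 0.0666, edgeR adjusted p = 1.13e-16). LSR, the protein that recruits tricellulin to tricellular contacts, fell by 0.28 (SE 0.0303, edgeR adjusted p = 8.27e-12). Dystonin (DST), a plakin that includes a hemidesmosome form, rose by 0.32 (SE 0.0221, edgeR adjusted p = 2.01e-19). For all 4 genes, control and ADP-CM values were apart.

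A list of 26 regulators of epithelial genes and of the matriptase protease system was likewise chosen with earlier results known. It had 20 tested genes, of which 3 were called higher and 8 lower, against 13.5% higher and 13.0% lower among all tested genes. ELF3, an epithelial ETS factor, stood at 372, 361 and 369 CPM in control and 259.9, 249.6 and 252 CPM in ADP-CM. It fell by 0.53 on the log2 scale (SE 0.0233, edgeR adjusted p = 4.09e-29). EHF, another ETS factor, was low and rose from 6.10, 5.685 and 4.91 CPM to 11.2, 10.6 and 10.55 CPM, by 0.96 (SE 0.110, edgeR adjusted p = 9.59e-11). The repressor SNAI2, or SLUG, rose by 0.24 (SE 0.0276, edgeR adjusted p = 6.79e-11). ST14, which encodes matriptase, fell by 0.41 (SE 0.0274, edgeR adjusted p = 5.30e-20), and OVOL1, a zinc finger repressor of epithelial cells, by 0.61 (SE 0.0770, edgeR adjusted p = 1.76e-09). For all 5 genes, control and ADP-CM values were apart. ZEB1 had 20 to 28 reads per library and did not pass, and ZEB2 had at most 2 reads in any library.

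**Figure D5:**
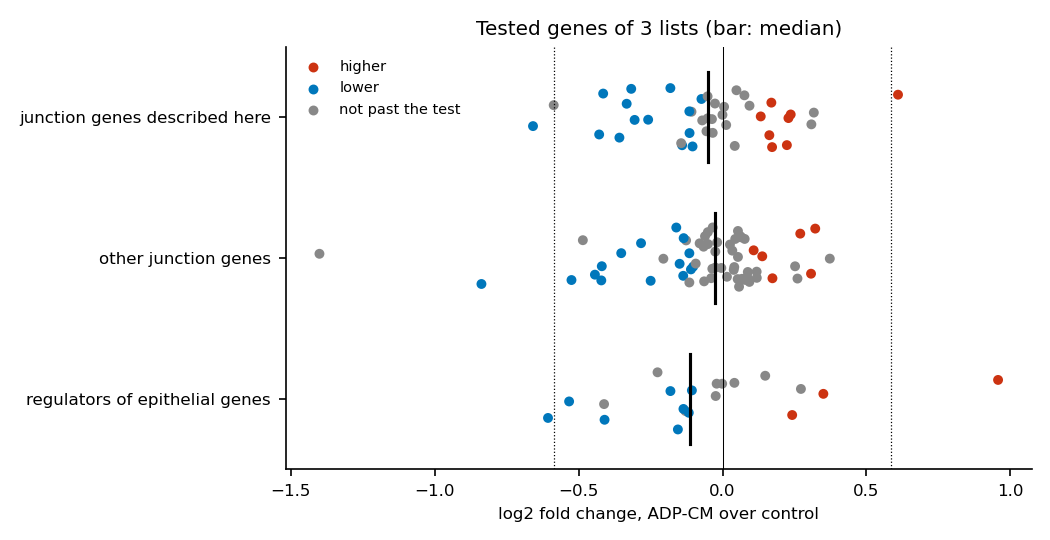
Log2 fold change of ADP-CM over control on the horizontal axis, 1 point for each tested gene, in rows for the 41 junction genes, the 63 other junction genes and the 20 regulators, coloured by call, with the list medians as bars and a fold change of 1.5 as dotted lines. The medians are -0.05, -0.02 and -0.11, and the points of all 3 lists lie on both sides of 0. The lowest point, not past the test, is GJD3, named after its value was seen, with few reads.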

How the data were processed

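RNA of RL95-2 cells was sequenced in 3 control and 3 ADP-CM libraries, prepared with the TruSeq stranded mRNA kit. Alignment by the authors was to hg19 with TopHat2, and HTSeq then gave the raw read counts per RefSeq gene that they deposited. Versions and the strand setting of the counting are not given in the sources used here. Reads on no gene, ambiguous reads (0.719% in control and 0.714% in ADP-CM) and reads without a unique alignment (20.5% and 20.7%) entered neither the library sizes nor the tests. The authors compared groups with DESeq, and those results were not used.

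Counts were TMM-normalized, filtered by filterByExpr with its defaults and tested in R 4.3.3 with edgeR 4.0.16 (quasi-likelihood test, 2-sided, Benjamini-Hochberg adjustment over all tested genes). The SE is the coefficient over the root of its F statistic, and intervals are at 95%. The common biological coefficient of variation came to 1.67% at this depth, and small differences of well expressed genes could therefore pass. On simulated counts with 200 changed among 12663 genes, edgeR recovered 51 of 66 genes changed by 0.3 on the log2 scale. It recovered 57 of 66 changed by 0.585 and 61 of 67 changed by 1. Every simulated gene was given the common coefficient of variation, so recovery at each real gene's own spread was not measured. Intervals and floors cover counting error and the spread between libraries only, since the reads carry no molecular identifiers. Replicate counts differed beyond sampling noise in all pairs, so none was merged.

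The genes and lists were chosen with earlier results of these data known. Every junction gene was named with its call or reads. Values per library were given for genes past both limits, for the 3 smallest adjusted p-values in each role group of 5 or more genes and the 2 in smaller groups, and in a few places for further genes chosen after their values were seen. From the other lists the 5 smallest adjusted p-values and the genes past the fold limit were named, apart from a few left unreported here. Positions, lengths and overlaps came from GENCODE release 44 on GRCh37, and promoter windows from a RefSeq table on GRCh38.p14. Alternatives were DESeq2 1.42.0, its size factors, library sizes alone, 2 other filters, a robust fit, other limits, a replicate block, other lengths and each library left out in turn. No protein sequences were used here.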

Additional observations from a re-analysis of the deposited data

Results flagged for a closer look

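Reads that lay on no annotated gene, which enter none of the comparisons, made up 11.55% of counted reads on average in ADP-CM (SD 0.0331, n = 3) and 10.3% in control (SD 0.0528, n = 3). The 3 ADP-CM libraries (11.5% to 11.6%) lay above the 3 control libraries (10.2% to 10.3%). What these reads hold was not tested.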

How the results depend on the processing

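Across the 6 fits that left out 1 library, 7 to 8 junction genes were called higher and 10 to 14 lower. With DESeq2, 7 were higher and 10 lower. The direction of each of the 22 called genes was the same in all fits, and 15 of them were called in all fits. The median log2 fold change was -0.05 with TMM, with DESeq2's size factors and with library sizes alone. With the fold limit of 1.5, leaving out 1 library gave 0 to 1 genes higher and 0 to 2 lower. CGNL1 was lost without control replicate 1 or 2 or ADP-CM replicate 1 or 2, GJB2 was lost without control replicate 2, and TJP3 was gained without ADP-CM replicate 3. An adjusted p limit of 0.05 gave 2 lower, adding TJP3, and a fold limit of 2 gave 0 higher and 0 lower. Leaving out a library leaves fewer samples, and the cause of each other change was not tested. DESeq2 called 1983 genes in all, out of 16801 with a fold change, and edgeR called 3357. The edgeR total of 12663 was counted after a filter on low counts, so the shares cannot be compared.

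The labels do not say whether the replicate numbers pair the samples, and the main test did not pair them. The deviations of same-numbered libraries correlated at 0.057, 0.030 and 0.088. Every library correlated best with its own number, which is a hint from the data and not the design. With the replicate block, 8 junction genes were higher and 14 lower, and with the fold limit 1 and 1. The block gave 7 other junction genes higher and 15 lower, and 3 regulators higher and 8 lower.

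Genes under about 20 reads per library, such as CLDN16, had intervals too wide to show differences of the size seen elsewhere.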
